A study of Mus musculus with 3 samples.

Results

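The genes described here are 10 classical surface markers of fibroblasts and mesenchymal stromal cells: Thy1, Ly6a, Islr, Nt5e, Fap, Pdgfra, Pdgfrb, Ddr2, Cdh11 and S100a4. They were chosen by name, and their probes were found through the RefSeq transcript that each probe of the array was designed on. All 10 were measured, among 15393 genes in all. Expression was compared in cardiac myofibroblasts, the contractile and matrix-producing fibroblasts of the injured heart, from male C57BL/6J mice. Per the labels, the mice were 8 weeks old in one field and 10 weeks old at surgery in another, and the hearts were taken 3 days after the left anterior descending coronary artery had been tied off for good. The digested heart cells were allowed to attach to plastic overnight, and cells without the leukocyte protein CD45 were kept as myofibroblasts. Adherent cells were grown on plastic plates, non-adherent cells had been moved from plates to suspension, and re-adherent cells had been returned to plates after suspension. Each state was read on 1 array, whose RNA pooled material from several hearts and plates. The states were collected one after another, so time in culture and state cannot be told apart, and most of the cells placed in suspension were lost there according to the methods of the study.

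Fibroblasts have no single defining surface protein, so they are identified by combinations of markers that differ between resident, activated and stem-like states. Several markers are anchored in the outer membrane by a lipid tail (THY1, LY6A, meflin and CD73), several are receptor tyrosine kinases for growth factors or collagen (the PDGF receptors and DDR2), and others are a protease (FAP) or an adhesion molecule (cadherin 11). S100A4, also called fibroblast-specific protein, is a calcium-binding protein of the cytosol that is secreted as well, and is made by macrophages as well as by fibroblasts. In the heart, PDGFRA, THY1, DDR2 and S100A4 have been used to mark fibroblasts, and FAP to mark activated ones.

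With 1 array per state no p-value can be given, and having so few arrays limits the precision. Signals are given in intensity units after the scanner software had subtracted background, and differences are given on the log2 scale after dividing each array by its 75th percentile (651, 697 and 541 units for adherent, non-adherent and re-adherent cells). The error after each difference is the technical error of the spots and leaves out any spread between cultures. Each of the 13 probes for the 10 genes had signals well above background throughout, and none of their spots was saturated or had an outlier flag.

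The promoters of Nt5e, which was higher in suspension, and of S100a4, which was lower, are shown because they are the markers whose RefSeq promoter begins at the outer end of the gene. Of the 10 markers, 5 had an entry (Pdgfra, Nt5e, Islr, Ddr2 and S100a4). Both sequences shown give the 250 bases before the start site on the plus strand of GRCm38.p6. Capitals mark the letters TATAAA. The Nt5e promoter lay at chr9:88327359-88327608 and the S100a4 promoter at chr3:90603520-90603769.
Nt5e: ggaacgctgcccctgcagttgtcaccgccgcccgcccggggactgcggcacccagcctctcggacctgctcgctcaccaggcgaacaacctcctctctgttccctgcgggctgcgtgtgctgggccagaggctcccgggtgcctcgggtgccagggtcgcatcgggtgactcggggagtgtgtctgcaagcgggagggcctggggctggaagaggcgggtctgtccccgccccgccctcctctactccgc
S100a4: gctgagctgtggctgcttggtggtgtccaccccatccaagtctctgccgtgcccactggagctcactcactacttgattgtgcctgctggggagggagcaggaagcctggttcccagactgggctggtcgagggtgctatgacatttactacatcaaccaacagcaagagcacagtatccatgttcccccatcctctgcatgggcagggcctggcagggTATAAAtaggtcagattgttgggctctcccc

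The S100a4 promoter held TATAAA from 31 to 26 bases before the start. That of Ddr2, not shown and on the minus strand, held it from 185 to 180 bases before its start. This Ddr2 start lies 21892 bases inside the outer end of the gene. The Nt5e promoter had no such letters and a GC content of 72%, above the upper quartile of 61.2% over 32851 mouse promoters. Of those promoters, 12.4% held TATAAA on either strand. The TEAD core motif GGAATG, the AP-1 motif TGANTCA and the CArG box of serum response factor were also searched on both strands, and none of the 5 marker promoters held any of them. Over all promoters these were found in 12.6%, 6.75% and 1.47%, so their absence from 5 sequences says nothing about the factors.

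The first question was what became of the markers when cells left the plastic. They did not move as a group. Thy1, Cdh11, S100a4 and Ddr2 were over 2-fold lower in non-adherent than in adherent cells, Islr, Fap and Nt5e were over 2-fold higher, and Pdgfra, Pdgfrb and Ly6a stayed within 2-fold. The background, the share of all genes past the same limit, was 14.7% on the lower side and 17.2% on the higher side. At 4-fold, Thy1 was lower and Islr higher, against a background of 5.34% and 7.61% of genes. The median difference of the 10 markers was -0.51, and that of all genes was -0.07.

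**Figure D1:**
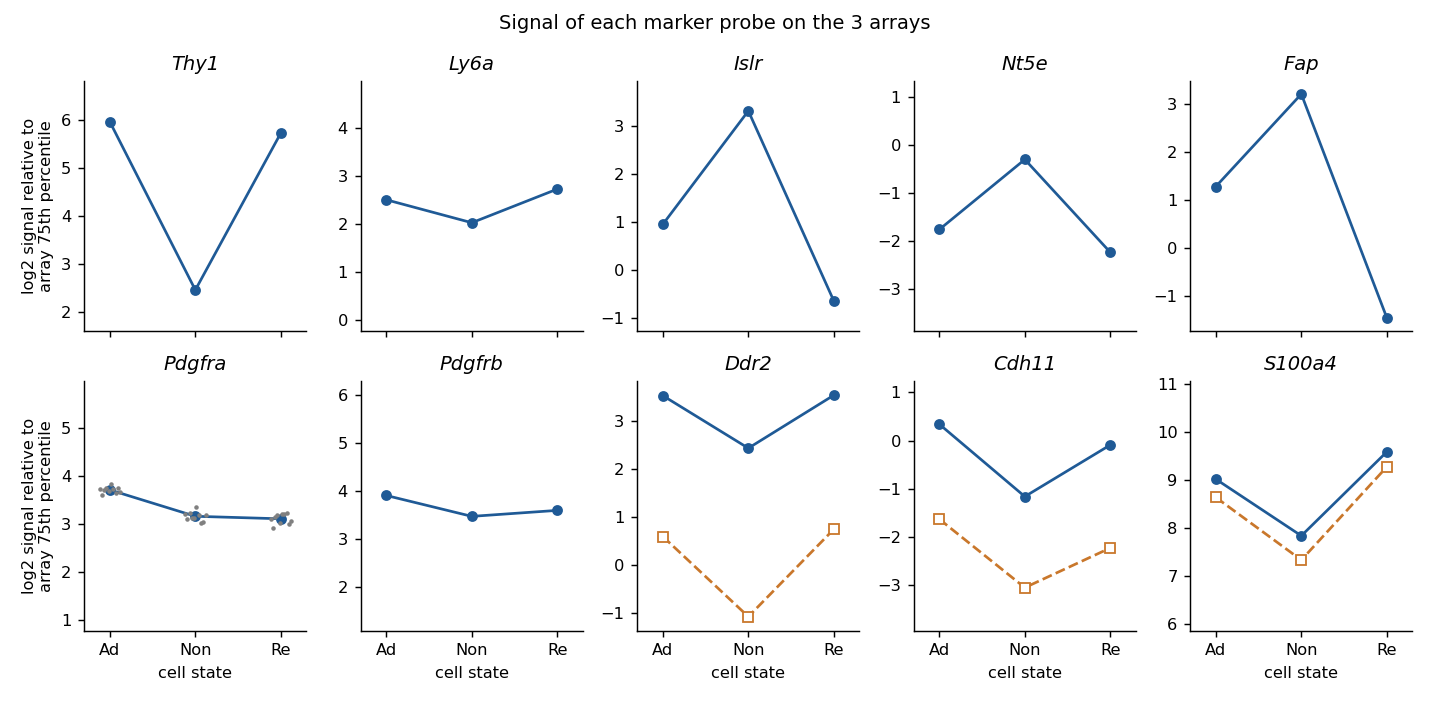
Log2 signal of each probe relative to the 75th percentile of its array (y axis) with 1 array each for cells that were adherent (Ad), in suspension (Non) or back on plastic (Re). Filled circles are the brighter or single probe, open squares the second probe of Ddr2, Cdh11 and S100a4, and grey dots the 10 spots of the Pdgfra probe. Thy1 dips from 5.96 to 2.46 and returns to 5.72, while Islr and Fap peak in suspension and end below their adherent level.

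Thy1 encodes THY1 (CD90), a small glycoprotein of the immunoglobulin superfamily. Its signal was 40445 units in adherent, 3823 in non-adherent and 28618 in re-adherent cells. The non-adherent array was thus the low one, and both arrays of cells on plastic were high. Thy1 fell by 3.50 ± 0.20 in suspension, which is 11.3-fold, and 238 of the 15393 genes had a more negative difference. On re-adhesion it was 3.27 ± 0.20 higher than in suspension. It ended 1.18-fold below the adherent level, at -0.23 ± 0.20.

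Ly6a encodes LY6A (Sca-1), which marks stem-like mesenchymal cells in mice and is found on endothelial cells too. Its signals of 3699, 2843 and 3591 units lay close together. The difference in suspension was -0.48 ± 0.20 and that on re-adhesion 0.70 ± 0.20, both within 2-fold. Re-adherent cells lay above adherent cells by 0.22, which was close to the error of 0.20 and took the opposite sign without scaling or with spike-in scaling (-0.21 with the latter). Members of the LY6 family resemble each other, and how far the Ly6a probe binds their transcripts was not tested. Of the 5 relatives measured, Ly6d was over 2-fold higher in suspension (1.73 ± 0.32) and Ly6k over 2-fold lower (-1.03). Ly6d was dim, at 26.0, 92.0 and 26.9 units.

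Islr encodes meflin, a membrane-anchored protein with leucine-rich repeats that is used as a marker of mesenchymal stromal cells. Its signal was 1258 units in adherent, 6920 in non-adherent and 346 in re-adherent cells. The order was therefore non-adherent, adherent, re-adherent, with steps larger than the technical error between neighbours. Islr was 2.36 ± 0.20 higher in suspension (5.14-fold) and 3.96 ± 0.21 lower on re-adhesion (15.5-fold). Re-adherent cells ended 3.02-fold below adherent cells, at -1.59 ± 0.21.

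Nt5e encodes CD73, the surface enzyme that turns AMP into adenosine. The signals were 191, 563 and 114 units, again highest in suspension and lowest after re-adhesion. It was 1.46 ± 0.21 higher in suspension and the difference on re-adhesion was -1.93 ± 0.21. The remaining difference between re-adherent and adherent cells was -0.48 ± 0.21, within 2-fold.

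Fap encodes fibroblast activation protein, a serine protease of the cell surface. Its signal was 1587 units in adherent, 6452 in non-adherent and 199 in re-adherent cells. Among the 10 markers it covered the widest range, with a difference of 1.93 ± 0.20 in suspension (3.80-fold) and -4.66 ± 0.21 on re-adhesion (25.2-fold). Of all genes, 81 had a more negative difference in the second step. Re-adherent cells were 6.64-fold below adherent cells, at -2.73 ± 0.21, and 54 genes had a more negative difference there.

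Thus Islr, Nt5e and Fap shared a peak in suspension, whereas Thy1 had its trough there. The gap between 2 genes on the same pair of arrays does not depend on a constant scaling. Relative to Thy1, Islr shifted by 5.86 ± 0.29 into suspension, Fap by 5.43 ± 0.29 and Nt5e by 4.96 ± 0.29. On re-adhesion the same gaps were -7.22, -7.93 and -5.20.

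Pdgfra and Pdgfrb encode the receptor tyrosine kinases for platelet-derived growth factors, of which the first is a common marker of cardiac fibroblasts and the second is shared with pericytes. The Pdgfra probe was spotted 10 times, which gave a direct view of the measurement error. Its spots had a median of 8579 units (7886 to 9293) on the adherent array, 6238 (5699 to 7125) on the non-adherent array and 4736 (4111 to 5060) on the re-adherent array. The ranges of the spots did not overlap between arrays before scaling. After scaling, the non-adherent and re-adherent ranges did overlap, from 3.03 to 3.35 and from 2.92 to 3.22 on the log2 scale.

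Averaged over its spots, Pdgfra differed by -0.55 in suspension (SD over 10 spots 0.08, range -0.72 to -0.47), by -0.05 on re-adhesion (SD 0.11) and by -0.60 between re-adherent and adherent cells (SD 0.09). Every spot was lower on both later arrays than on the adherent array. These spots read 1 RNA sample per state and are technical repeats. Their SD leaves out the effect of processing. Over the main and alternative settings Pdgfra ranged from -0.85 to -0.30 in suspension and from -0.42 to -0.04 on re-adhesion. Pdgfrb gave 9706, 7686 and 6511 units, a difference of -0.43 ± 0.20 in suspension and 0.12 ± 0.20 on re-adhesion, of which the second had the opposite sign under 5 of the alternative settings. The first was -0.11 after subtraction of the median difference of neighbouring spots. The gap between Pdgfra and Pdgfrb shifted by -0.11 ± 0.21 in suspension, less than its error.

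Ddr2 encodes discoidin domain receptor 2, a receptor tyrosine kinase that is activated by fibrillar collagen. Its brighter probe gave 7531, 3777 and 6304 units and the second probe 986, 332 and 911 units. Both probes were lowest in suspension, at -1.09 ± 0.20 and -1.67 ± 0.20, and both were higher again on re-adhesion, 2.15-fold by the brighter probe and by 1.82 on the log2 scale by the second. The probes thus differed in size by more than their technical error, though not in direction. The brighter probe ended 0.01 ± 0.20 from its adherent level. Relative to Pdgfrb, Ddr2 shifted by -0.66 ± 0.29 in suspension. The brighter probe lay close to the 2-fold limit in suspension, and was just within it in the authors' deposited values and without scaling, and at -0.96 after subtraction of the median difference of neighbouring spots.

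Cdh11 encodes cadherin 11, which joins mesenchymal cells to each other. Its brighter probe gave 823, 310 and 508 units, and its second probe 209, 83.3 and 115 units. The differences in suspension were close, -1.51 ± 0.20 and -1.43 ± 0.22. On re-adhesion they were 1.07 ± 0.21 and 0.83 ± 0.22, so the second probe stayed within 2-fold in that step. Re-adherent cells were lower than adherent cells by both probes, at -0.43 ± 0.20 and -0.60 ± 0.22.

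S100a4 was read at the bright end of the scale, with 336194, 158847 and 414622 units by one probe and 258295, 111984 and 333785 units by the other. The brightest non-control spot was between 535164 and 575405 units on the 3 arrays. Both probes were lowest in suspension, at -1.18 ± 0.20 and -1.30 ± 0.20, and highest in re-adherent cells. On re-adhesion the differences were 1.75 ± 0.20 and 1.94 ± 0.20, and re-adherent cells were above adherent cells by 0.57 ± 0.20 and 0.64 ± 0.20. S100a4 was the marker with the largest positive difference between re-adherent and adherent cells. By the brighter probe this difference was 0.14 with spike-in scaling, less than its error, and 0.30 without scaling.

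The second question was how far the markers returned when the cells were put back on plastic. In re-adherent against non-adherent cells, Thy1, S100a4, Ddr2 and Cdh11 were over 2-fold higher and Fap, Islr and Nt5e over 2-fold lower, with backgrounds of 15.6% and 16.3% of genes. Past 4-fold were Thy1 on the higher side (background 5.7%) and Islr and Fap on the lower side (background 6.05%). This comparison and the one into suspension share the non-adherent array, so that an error on this array enters both with opposite sign. The calls of Ddr2 and Cdh11 on re-adhesion depended on scaling, and both were under 2-fold in the authors' deposited values.

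Against the first adherent array, which is not part of the re-adhesion step, 8 of the 10 markers lay within 2-fold in re-adherent cells. Fap and Islr were over 2-fold lower, where 4.9% of all genes were, and no marker was over 2-fold higher, where 4.84% of genes were. At 4-fold, Fap was lower (background 1.29%) and no marker was higher (background 1.36%). The median of the 10 markers was -0.37, against 0.06 for all genes. Ddr2 and Thy1 lay near their adherent level, whereas Fap and Islr had passed it in the opposite direction. With spike-in scaling Pdgfra also passed the 2-fold limit, at -1.03.

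**Figure D2:**
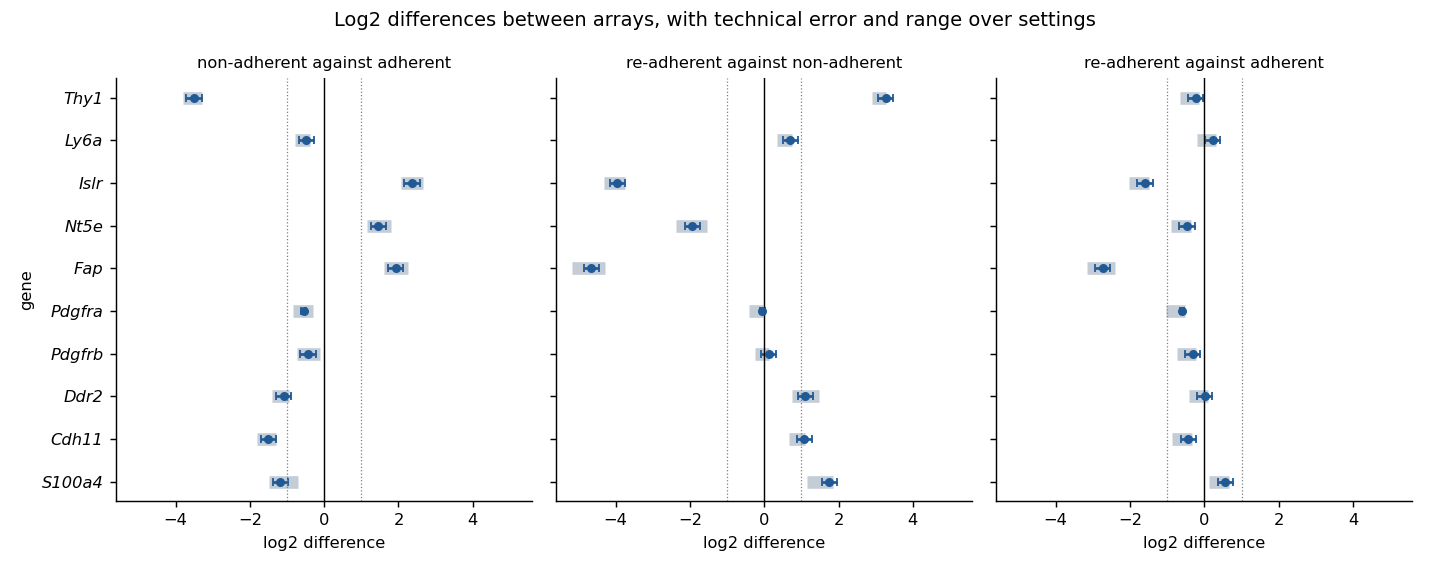
Log2 difference of each marker (x axis) in the 3 pairs of arrays, 1 array per state. Points are the values of the brighter probe, bars the technical error, grey bands the range over 11 alternative settings and the main one, and dotted lines the 2-fold limit. The bands of Thy1, Islr, Fap and Nt5e stay beyond 2-fold in both steps, and those of Pdgfra and Pdgfrb stay within it.

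**Figure D3:**
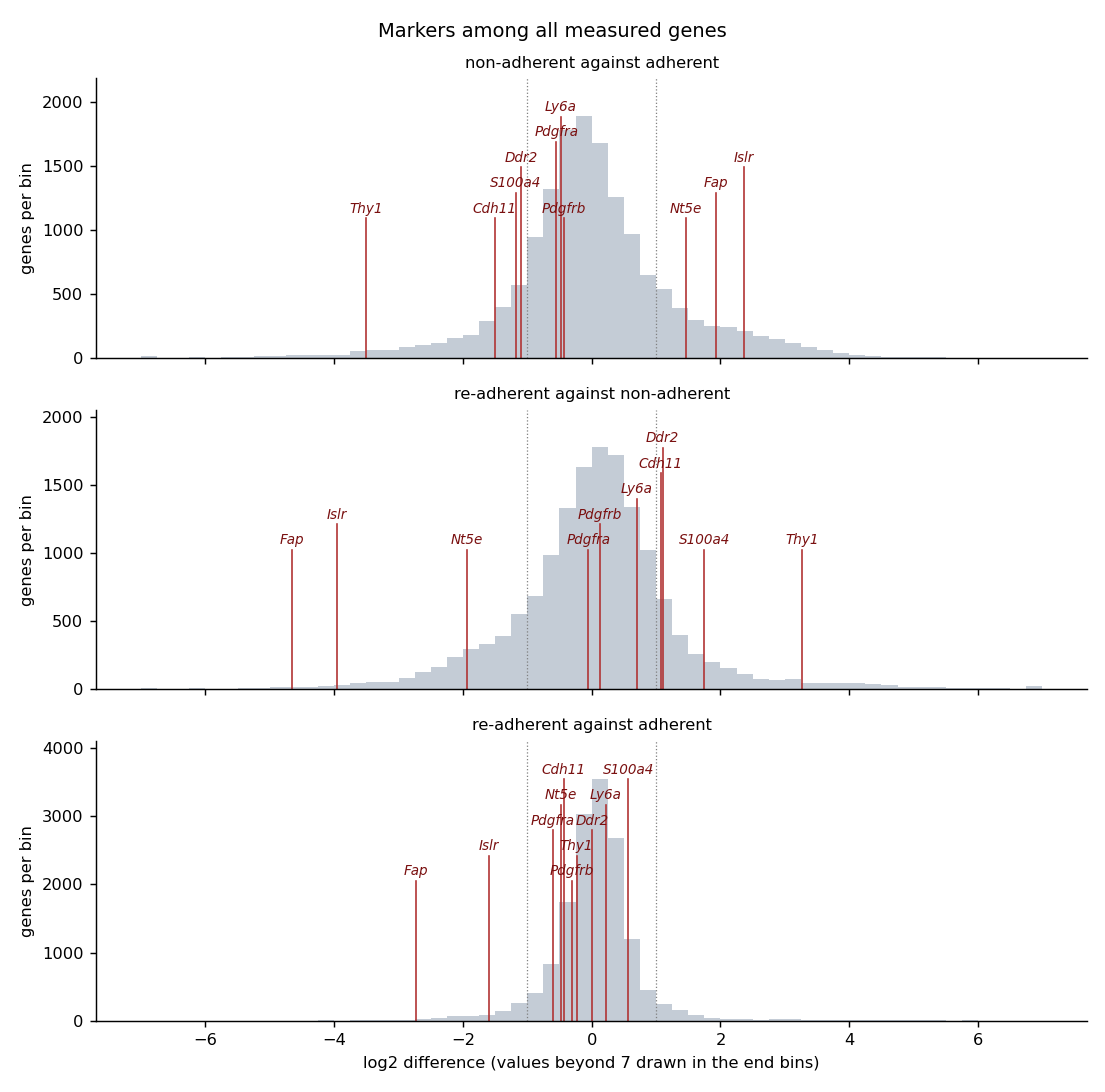
Number of genes per bin of log2 difference over 15393 genes (grey), with each marker as a red line, in the 3 pairs of arrays; dotted lines mark 2-fold. Thy1 lies in the lower tail into suspension, Fap and Islr in the lower tail on re-adhesion, and Fap remains in the lower tail between re-adherent and adherent cells.

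Other mesenchymal surface genes were read from a list of 30, of which all were measured. Into suspension 11 fell past the 2-fold limit on the lower side (background 14.7% of genes) and 9 on the higher side (background 17.2%), with a median of -0.52. As with the 10 markers, members went both ways. Tnfrsf12a, which encodes the receptor of the cytokine TWEAK, had signals of 33868, 2823 and 42514 units, a difference of -3.68 in suspension. Anpep, which encodes the aminopeptidase CD13, had 6858, 72702 and 7122 units, a difference of 3.31. Between re-adherent and adherent cells both were higher but within 2-fold, at 0.59 ± 0.20 and 0.32 ± 0.20. In that comparison 7 of the 30 lay past 2-fold on the lower side (background 4.9%) and 0 on the higher side (background 4.84%). Dpp4, Lrrc15, Mme and Prom1, which are 4 of the 7, were not well above background in re-adherent cells, so that Dpp4, Mme and Prom1 can only be said to be at least 1.48-fold, 1.79-fold and 1.46-fold lower.

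Of genes that act with the markers, ligands of the PDGF receptors did not move together. Pdgfd differed by -3.91 in suspension and by 3.88 on re-adhesion, whereas Pdgfc differed by 1.89 and -2.09. Pdgfa was over 2-fold lower (-1.05) and Pdgfb over 2-fold higher (1.21) in suspension. Ddr1, the relative of Ddr2, was lower by more than the latter, at -2.76, and Prep, a prolyl peptidase in the same enzyme class as FAP, differed by -1.16.

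Among 8 measured genes of adenosine handling, 3 were over 2-fold higher and 1 lower in suspension (backgrounds 17.2% and 14.7%). Entpd1, which encodes CD39, the enzyme that supplies CD73 with AMP, was at 58.7, 525 and 64.5 units, a difference of 3.06. Ada, which encodes the adenosine-degrading deaminase, differed by -2.19. CD39 is also a protein of macrophages and endothelium.

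In the S100 family, 9 relatives of S100a4 were measured. Of these, 4 lay past 2-fold on the lower side and 3 on the higher side in suspension (backgrounds 14.7% and 17.2%). S100a3 differed by -3.24 and S100a6 by -2.21, both over 2-fold in the direction of S100a4. On re-adhesion 5 of the 9 were over 2-fold higher and 2 lower (backgrounds 15.6% and 16.3%). Between re-adherent and adherent cells 8 of the 9 had a positive difference, with a median of 0.85 against 0.06 for all genes.

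The labelled cell type was checked against its own and other markers. Of 10 genes of fibroblast identity, all 10 had a signal well above background on every array, among them Col1a1, Col1a2, Postn and Vim. Of all 15393 genes, 13476 had a probe that did so, which means that detection alone does not mark the cell type. Acta2, which encodes the smooth muscle actin of myofibroblasts, gave 434804, 4682 and 345124 units. Lum, which encodes the collagen-binding proteoglycan lumican, gave 3275, 41308 and 377 units, a difference of 3.56 in suspension and -2.85 between re-adherent and adherent cells. Lum and Dcn (1.69 and -1.51) thus had the order of states seen for Islr and Fap. The 10 genes did not move as a group in suspension. Acta2, Tcf21 (-1.75) and Col1a2 (-1.01) were over 2-fold lower (background 14.7%), and Lum, Dcn and Gsn over 2-fold higher (background 17.2%). The other 4 stayed within 2-fold. Gsn, at 1.49 in suspension, ended above its adherent level, at 0.83.

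Markers of macrophages moved with the states as well. Each of the 13 measured ones had a signal well above background on every array. In suspension 12 of them were over 2-fold higher (background 17.2% of genes), with a median of 2.68. Their summed signal relative to the 75th percentile was 216 in adherent, 1326 in non-adherent and 446 in re-adherent cells. Mrc1 and C1qb differed most, by 3.58 and 3.44. Ptprc, the gene of CD45 by which cells had been removed, gave 355, 2441 and 532 units. The part of macrophages in the marker differences was not tested, and in bulk RNA fewer fibroblasts and less RNA of a gene per fibroblast cannot be told apart.

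Endothelial genes moved as well. Of 8 endothelial markers, 4 were over 2-fold higher in suspension and 0 lower (backgrounds 17.2% and 14.7%). Tie1 (3.18) and Cdh5 (2.94) led these, and encode an endothelial receptor and the cadherin of endothelial junctions. The summed relative signals of the 8 were 17.1, 21.2 and 20.6 in adherent, non-adherent and re-adherent cells, most of it from Kdr. Without Kdr the other 7 summed to 2.61, 9.83 and 1.53. Between re-adherent and adherent cells, 7 of the 8 had a negative difference and the median was -1.32, against 0.06 for all genes. In that pair 4 were over 2-fold lower (background 4.9%). Of these, Tie1 and Emcn were not well above background in re-adherent cells, and Tie1 was at least 1.71-fold lower.

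Of 8 pericyte and smooth muscle markers, 2 were over 2-fold lower and 2 higher in suspension, which is near the backgrounds of 14.7% and 17.2%. The summed relative signal was highest there, at 3.996, against 3.08 in adherent and 1.85 in re-adherent cells, most of it from Notch3. Without Notch3 the other 7 were highest in adherent cells, with sums of 0.902, 0.655 and 0.595 in adherent, non-adherent and re-adherent cells. Des, which encodes the muscle filament desmin, differed by -2.17 in suspension, and Rgs5, a pericyte gene, by 0.79. Abcc9 and Kcnj8 were not well above background on either array of cells on plastic, and were at least 5.62-fold and 4.10-fold higher in suspension than in adherent cells. Myh11 went the other way. It was not well above background in suspension, where it was at least 16.3-fold lower than in adherent cells.

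Of the lymphocyte markers, 3 were well above background on every array. Cd4 gave 2855, 3440 and 2536 units, Cd3e 948, 908 and 988 units and Lck 91.3, 176 and 47.8 units, and none of the 3 differed by over 2-fold in suspension. Cd3d, Cd8a, Cd79a and Ms4a1 were not well above background on any array. Of 8 cardiomyocyte markers, Ryr2 and Pln were not either, and Nppa and Myh6 differed by 0.99 and 0.96 in suspension. Tnni3, not well above background in adherent cells, was at least 3.14-fold higher in suspension. It was the only 1 of the 6 measured past 2-fold there (background 17.2%). The 6 measured summed to 1.29, 2.04 and 3.39, most of it from Tnnt2, and the other 5 to 0.375, 0.666 and 0.345. These sums include Tnni3 and Actc1, which were not well above background in re-adherent cells. The part of these cells in the marker differences was not tested.

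**Figure D4:**
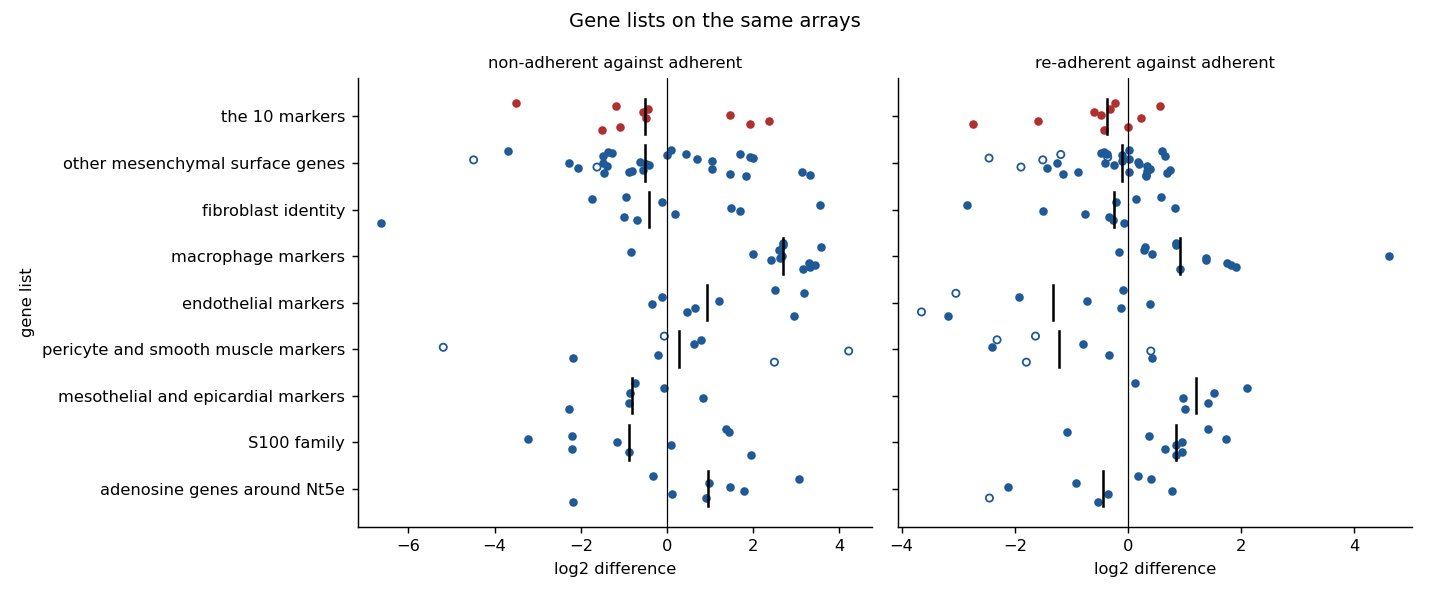
Log2 difference of every measured gene of 9 lists (x axis), non-adherent against adherent on the left and re-adherent against adherent on the right, 1 array per state. Points are genes, open circles genes not well above background on at least 1 of the 2 arrays, and black bars the medians. The 10 markers spread on both sides of 0 in suspension, whereas 12 of 13 macrophage markers lie above it.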

How the data were processed

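The authors deposited Agilent Feature Extraction 10.10.1.1 output of 1-colour 8x60K mouse arrays on 1 slide, with background-subtracted and detrended intensity values, and a matrix whose intensity values were that signal multiplied by a factor particular to the array (1.52, 1.52 and 1.62), with no normalization named. The log2 of the processed signal was reduced by the 75th percentile of each array over 59305 non-control spots, of which 53.9% to 59.9% were well above background. Spots with outlier flags were left out and spots of a probe averaged. Probes were named through RefSeq transcripts of GRCm38.p6 (27235 of 55681 probes), and coordinates of the mm9-based design were not used. Genes with a probe well above background on any of the arrays were kept, each represented by its brightest probe. A fold against a probe not well above background is given as a bound, for which the dim side was set to the dimmest well-detected probe of its array, or to the measured value if that was higher. Technical errors combine the errors that the software gave to both spots, with a median of 0.20 for a log2 difference. For 265 probes present 10 times, the SD of single-spot differences had a median over probes of 0.06 to 0.08, depending on the pair of arrays. No test was possible with 1 array per group, so differences over 2-fold are counted beside the same count over all genes. The functions were tested on simulated data.

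The markers, gene lists and limits were chosen with earlier results of these data known. From each further list, the text names the 2 genes with the largest difference in suspension among those well above background on both arrays, and others needed to check the cell type. Further genes, such as Dcn, Gsn, Tcf21, Col1a2, Pdgfa, Pdgfb, Kdr, Notch3, Tnnt2, Abcc9, Kcnj8, Myh11, Dpp4, Mme and Prom1, were named after their values had been seen. Cd68, Ly6c2 and Ly6g were not analysed here. One gene of the lymphocyte list is not reported here. Alternatives changed the scaling, background correction, choice of probes, filters and fold limit. Python 3.11.15, numpy 2.4.6, pandas 2.3.3 and limma 3.58.1 (normexp) were used.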

Additional observations from a re-analysis of the deposited data

How the results depend on the processing

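No paired analysis was possible because every state was read on a single array, and for the same reason no replicate could be left out. Over 11 alternatives other than the fold limit, 240 of 330 marker differences moved by less than their technical error and 90 by more, and 0 differences past 2-fold changed sign. The 240 include 30 each from the floor, from no filter and from the filter on all arrays. These could not move, because every marker probe was well above background on all arrays. Averaging probes could change only the 3 markers with 2 probes, so the 240 overstate how stable the differences were. The scanner files used here hold median spot signals, so these replaced mean signals in the normexp correction. The markers over 2-fold lower in suspension numbered 4, and 2 (Thy1 and Cdh11) after subtracting the median difference of neighbouring spots. They numbered 3 in the authors' values and without scaling, where Ddr2 was no longer counted, and 3 after quantile normalization, where S100a4 was not. The markers over 2-fold higher on re-adhesion numbered 4, and 2 (Thy1 and S100a4) in the authors' values, without scaling, with 7 spike-in probes and after that subtraction. S100a4 was at -0.71 in suspension under quantile normalization. A limit of 4-fold, which lowers counts by construction, gave 1 lower and 1 higher marker in suspension, 1 higher on re-adhesion and 1 lower between re-adherent and adherent cells. For the last pair, the median of all genes moved from 0.06 to -0.37 with spike-in scaling, so that small differences there depend on the scaling. Setting low signals to the floor left the 30 marker differences as they were, since every marker probe was well above background. The normexp correction moved 6 by more than their error, so that the size of some differences depended on how background was handled. Among these, Nt5e was at 1.18 in suspension and -1.54 on re-adhesion, and Fap at -4.28 on re-adhesion.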

Other observations

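Mesothelial and epicardial markers, which include keratins and uroplakins of the cell layer that covers the heart, were measured for 6 of 6 genes. In suspension 1 was over 2-fold lower and 0 higher (backgrounds 14.7% and 17.2%), and Krt19 and Krt8 gave the largest differences, -2.27 and -0.89. On re-adhesion 4 were over 2-fold higher (background 15.6%). In re-adherent against adherent cells 6 of 6 had a positive difference, 4 of them over 2-fold (background 4.84%), with a median of 1.21. The smallest, Wt1 at 0.12 ± 0.20, was within its error. With spike-in scaling the median of all genes in this pair was -0.37, so the sign of small differences depends on scaling. Their summed relative signal was 3.82, 2.57 and 7.75 in adherent, non-adherent and re-adherent cells.

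The genes nearest to Thy1 in both steps, by Euclidean distance over 2 differences among 13474 genes well above background on all 3 arrays, were Rhobtb3, Uck2 and Pcsk6, at distances of 0.12, 0.13 and 0.14. Those nearest to Islr were Olr1, F7 and Ace, at 0.19, 0.27 and 0.28. With 3 arrays such nearness is a description of these arrays.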
